A study of Rattus norvegicus with 69 samples.

Results

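The subject here is the antigen presentation machinery of MHC class II in rat blood, described through 9 genes. Of these RT1-Ba and RT1-Bb are chains of RT1-B, and RT1-Da, RT1-Db1 and RT1-Db2 are chains of RT1-D. RT1-DMa and RT1-DMb form the peptide editor DM, RT1-DOb is a chain of DO, which restrains DM, and Cd74 is the invariant chain. The members were taken by name from a list of 10, each through the probe set annotated to that symbol alone. Each of the 9 had 1 such probe set, out of 14557 genes with a probe set of 1 symbol, and Ciita, the class II transactivator, had none and was dropped. With 1 probe set each, no measured value entered the choice of probe set. The list itself was chosen with earlier results of these data known. All 9 lay above the minimum variance and were tested.

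Whole blood of male Sprague-Dawley rats, an outbred stock, 9 weeks old at purchase, was profiled on 69 Affymetrix Rat Gene ST arrays. The exposed rats inhaled laser printer-emitted particles (PEPs) with the gases of the printer, 5 hours per day in a whole-body chamber, and the other rats inhaled HEPA-filtered air in the same way, so that handling and confinement were common to both arms. Blood was taken on days 1, 5, 9, 13, 17 and 21. There were 5 exposed and 5 air rats on days 1, 5, 9 and 13, 5 exposed and 4 air rats on day 17, and 6 in each arm on day 21. A further 4 exposed and 4 air rats of day 21 carried an implanted radio telemetry transmitter. In all 35 arrays were of exposed rats and 34 of air rats, in 14 groups. The groups are named below by arm and day, and the telemetry rats by that word. The labels mention repeated runs of the exposure without giving the run of each rat, so runs and groups cannot be told apart.

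MHC class II molecules are pairs of an alpha and a beta chain that show peptides from ingested protein to CD4+ T cells. The chains assemble on the invariant chain Cd74, which blocks the groove until endosomal proteases trim it, and the DM pair then helps exchange the last fragment for an antigenic peptide, a step that the DO pair restrains. In blood the class II genes are read chiefly in B cells, monocytes and dendritic cells. Their transcription depends on Ciita, which docks on a complex of RFX, CREB and NF-Y proteins bound to the X, X2 and Y boxes of each promoter. In RefSeq the RT1 members stand in the order RT1-Da, RT1-Db2, RT1-Db1, RT1-Ba, RT1-Bb, RT1-DOb, RT1-DMb and RT1-DMa on chromosome 20, with Tap2, Psmb8, Tap1 and Psmb9 between RT1-DOb and RT1-DMb, and Cd74 lies on another chromosome.

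The promoters are shown because they are what the members share in their sequence, and the reference table held one for 8 of the 10 listed genes (RefSeq, GRCr8). The Y box core, GATTGG, was found on the gene's own strand in the promoters of all 7 RT1 members that had an entry, between 44 and 118 bases before the annotated start, and was not found in that of Cd74. It occurs on either strand in 14.8% of 33469 rat promoters of the same length and on the gene's own strand in 8.02%. The windows below run from 60 bases before this core to 15 bases after it, with the Y box core and the X and X2 matches upstream of it in capitals.
RT1-Ba, chr20:4576953-4577033, plus strand: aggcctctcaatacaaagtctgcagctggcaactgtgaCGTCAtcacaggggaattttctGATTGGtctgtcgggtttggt
RT1-Bb, chr20:4604160-4604240, minus strand: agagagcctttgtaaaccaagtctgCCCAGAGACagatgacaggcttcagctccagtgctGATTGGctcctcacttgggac
RT1-Da, chr20:4515305-4515385, plus strand: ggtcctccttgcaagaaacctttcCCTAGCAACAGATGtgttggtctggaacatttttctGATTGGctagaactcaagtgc
RT1-Db1, chr20:4560223-4560303, minus strand: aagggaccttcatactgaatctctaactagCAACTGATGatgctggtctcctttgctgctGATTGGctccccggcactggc
RT1-Db2, chr20:4541693-4541773, minus strand: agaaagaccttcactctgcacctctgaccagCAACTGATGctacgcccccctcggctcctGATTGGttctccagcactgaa
RT1-DMa, chr20:4712380-4712460, minus strand: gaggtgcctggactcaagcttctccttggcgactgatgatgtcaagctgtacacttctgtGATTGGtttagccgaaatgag
RT1-DOb, chr20:4627587-4627667, minus strand: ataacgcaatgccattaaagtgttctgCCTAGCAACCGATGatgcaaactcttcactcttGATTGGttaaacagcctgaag

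The X box core, searched as CCNAGNNAC, matched 5 of the 8 promoters on either strand, against 17.7% of all promoters. Only those of RT1-Bb, RT1-Da and RT1-DOb held it upstream of the Y box in the window shown, while RT1-Db2 and Cd74 held it elsewhere. The letters CAACNGATG, a form of the X box chosen after the sequences had been read, stood upstream of the Y box core, with 19 to 22 bases between them, in RT1-Da, RT1-Db1, RT1-Db2 and RT1-DOb, against 0.586% of all promoters on either strand. They overlap the X box core by 4 bases in RT1-Da and RT1-DOb. The X2 core, CGTCA, matched the promoter of RT1-Ba alone, on both strands at overlapping positions, against 21.2% of all promoters. These are matches of letters in a reference genome of another strain, and binding was not measured.

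Levels are log2 intensities as summarised by the authors (RMA), and a difference of 1 is a factor of 2. They are not compared between genes, because probe sets differ in affinity. The mean of Cd74 over the 69 arrays stood at percentile 99.7 among all genes and that of RT1-Da at 98.8, while RT1-Bb stood at 60.3. Over arrays Cd74 ran from 10.49 to 12.40 with a median of 11.73, RT1-Da from 8.91 to 10.81 with a median of 9.99, and RT1-Bb from 2.45 to 7.28 with a median of 3.91. The other 6 members had medians between 5.70 (RT1-Db2) and 7.96 (RT1-Db1). Markers of the cells that carry class II gave signal on all arrays. The mean of 9 B cell markers with a probe set, out of 14 listed, lay between 6.37 and 7.98 over arrays, that of 10 of 12 monocyte markers between 4.64 and 7.56, and that of 6 of 10 dendritic cell markers between 2.99 and 4.41, near the array medians of 2.44 to 2.78 at its lower end. In whole blood fewer cells of a type and less RNA per cell cannot be told apart.

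**Figure D1:**
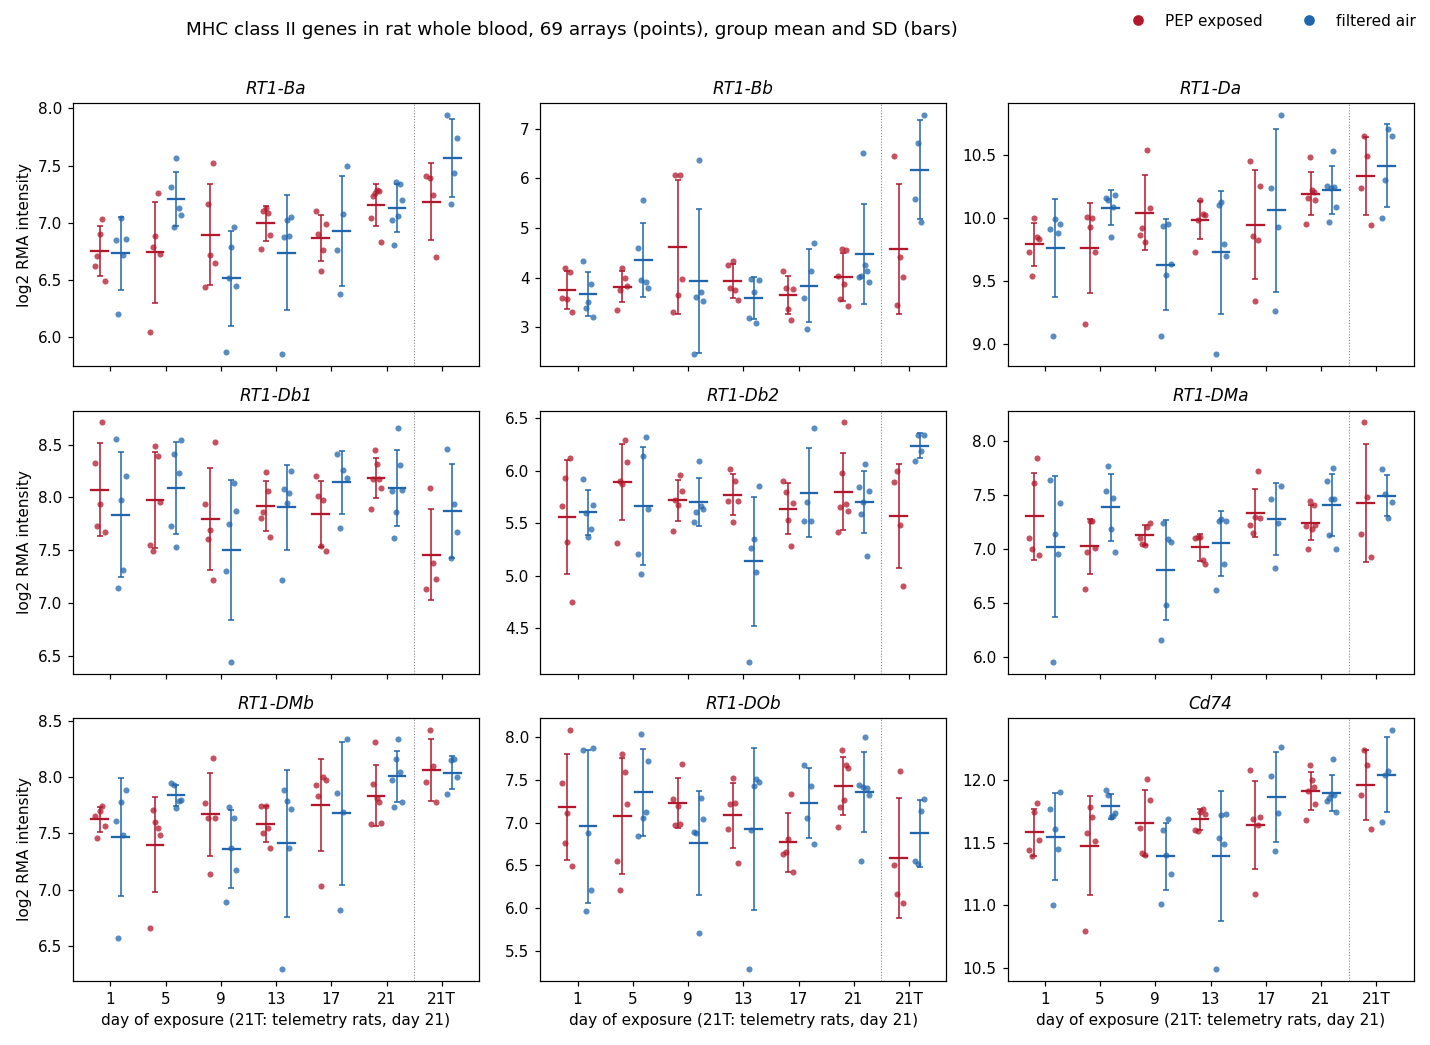
Log2 RMA intensity (y axis) of each of the 9 genes by day (x axis; 21T marks the telemetry rats of day 21), with exposed arrays in red on the left and air arrays in blue on the right of each day; points are single arrays, and bars give the group mean and SD. Arrays of both arms overlap for most genes and days, a few arrays lie low for most genes at once, and RT1-Bb reaches 7.28 in the air telemetry rats while most other arrays lie near 3.91.

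Some arrays were low for most members at once, and they are named before the comparisons that they enter. Air day 1 replicate 2 was the lowest of its group for 7 of the 9 members, exposed day 5 replicate 1 for 7, air day 9 replicate 1 for 7, and air day 13 replicate 1 for 8. Air day 17 replicate 2 and exposed telemetry replicate 4 were the lowest for 7 each. The mean of the 9 members was 6.77, 6.89, 6.80 and 6.45 on the first 4 of these arrays, against at least 7.26, 7.38, 7.29 and 7.34 on the other arrays of their groups. It was 7.13 on the air array of day 17, against at least 7.67, and 7.24 on the telemetry array, against at least 7.81. The B cell and monocyte means of all 6 were the lowest of their groups too, with B cell means of 6.63, 6.37, 6.82, 6.40, 7.02 and 7.26. Array weights, which limma sets low for arrays that deviate from their group over all probe sets, were 0.229, 0.286, 0.532, 0.246, 0.717 and 1.08 on them and up to 1.63 elsewhere. Exposed day 1 replicate 5 (weight 0.452) was the only other array under 0.5.

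No member passed in any comparison between exposed and air rats. The test was limma across 34176 probe sets, with Benjamini-Hochberg adjustment over all of them and a threshold of 0.05 on the adjusted p. Differences are exposed minus air, in log2, and their errors are standard errors. They are weighted by array, and the sign of the plain difference of group means was the other for 5 members on day 1 and 3 on day 13, and for none on the other days or with telemetry. On day 1, after a single exposure, 0 of 9 members passed, against 0% of all probe sets, and 0 had an unadjusted p under 0.05, against 6.59%. Differences ran from −0.11 (RT1-Da) to 0.14 (RT1-Db1) with a median of 0.04, beside a median of 0.01 over all probe sets tested. Cd74 was at 11.44, 11.40, 11.74, 11.82 and 11.52 in exposed rats and at 11.77, 11.01, 11.61, 11.45 and 11.91 in air rats. The exposed values lay inside the range of the air values. By plain group means 8 of the 9 were higher in exposed rats, with a median of 0.09. Leaving out single arrays moved the weighted median from −0.09 (without exposed replicate 4) to 0.15 (without air replicate 1), and it was 0.18 with the lower quartile of the array as a covariate, so that no direction can be given for this day.

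On day 5, 8 of the 9 members had lower values in exposed rats, and none passed. Differences ran from −0.46 (RT1-Bb) to 0.35 (RT1-Db2) with a median of −0.21, beside 0.01 over all probe sets. Here 0 members passed, against 0% of all probe sets, and 0 had an unadjusted p under 0.05, against 5.61%. RT1-DMb, the beta chain of the peptide editor DM, was at 6.66, 7.71, 7.60, 7.55 and 7.49 in exposed rats and at 7.95, 7.93, 7.73, 7.78 and 7.80 in air rats. The arms of this gene, alone among the 9 on this day, did not overlap, although 7.71 in exposed and 7.73 in air rats were close (difference −0.32 ± 0.20, SE, limma adjusted p = 0.939). How many of all probe sets had arms apart on this day was not counted, so the separation is a description only. RT1-Ba, the alpha chain of RT1-B, was at 6.04, 6.79, 6.89, 7.26 and 6.73 in exposed rats and at 7.31, 6.97, 7.57, 7.13 and 7.07 in air rats. Only the highest exposed value, 7.26, reached into the air range.

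Cd74 followed the same order on day 5, at 10.80, 11.58, 11.79, 11.71 and 11.52 in exposed rats and 11.92, 11.88, 11.70, 11.71 and 11.74 in air rats (−0.20 ± 0.16, limma adjusted p = 0.960). The air rats lay close together, while the exposed rats were spread, most of it through replicate 1 at 10.80. The median difference of the members was −0.16 without that array, −0.33 without exposed replicate 4 and −0.32 without array weights. All 9 B cell markers and 9 of 10 monocyte markers were also lower in exposed rats on this day, and none passed. The mean of the B cell markers ran from 6.37 to 7.48 in exposed rats and from 7.35 to 7.86 in air rats, and that of the monocyte markers from 5.48 to 6.44 in exposed rats and from 6.35 to 6.85 in air rats. With the B cell mean of each array as a covariate, the median difference of the members was −0.04. The part of cell numbers in these values was not tested.

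On day 9 the signs were the other way, with all 9 members higher in exposed rats. Differences ran from 0.01 (RT1-Db2) to 0.63 (RT1-Bb) with a median of 0.29, beside −0.01 over all probe sets. Of the members 0 passed, against 0.00585% of probe sets, and 0 had an unadjusted p under 0.05, against 7.12%. RT1-Da, the alpha chain of RT1-D, was at 9.86, 9.92, 9.80, 10.54 and 10.08 in exposed rats and at 9.06, 9.94, 9.55, 9.95 and 9.63 in air rats (0.36 ± 0.19, limma adjusted p = 0.726). The arms overlapped, with 2 air rats inside the exposed range. RT1-DOb, which restrains DM, was at 7.28, 6.97, 7.20, 6.99 and 7.69 in exposed rats and at 6.89, 6.88, 5.71, 7.29 and 7.04 in air rats (0.48 ± 0.34, limma adjusted p = 0.83). Its lowest value belonged to air replicate 3, an array that was not low for the members as a whole.

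Leaving out single arrays moved the median difference of day 9 from 0.22 (without air replicate 3) to 0.43 (without air replicate 4), and it was 0.24 without the low air replicate 1. B cell markers were higher in exposed rats in 8 of 9 cases and monocyte markers in 8 of 10, and none passed. The B cell mean ran from 7.04 to 7.84 in exposed rats and from 6.82 to 7.51 in air rats. With that mean as a covariate the median difference of the members was 0.19. The lower quartile of the array averaged 1.51 ± 0.05 in exposed rats and 1.55 ± 0.06 in air rats (SD), and its part was not tested.

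Whether the exposure difference itself differed between days 5 and 9 was tested directly. The day 9 difference minus the day 5 difference had a median of 0.56 over the members, with 8 of 9 above 0. RT1-Ba (0.66 ± 0.27, 95% interval 0.12 to 1.21), RT1-Da (0.57 ± 0.27, 0.02 to 1.11) and RT1-DMb (0.56 ± 0.28, 0.00 to 1.12) had an unadjusted p under 0.05 in limma, against 6.77% of all probe sets. None passed after adjustment (limma adjusted p = 0.63, 0.72 and 0.74), against 0.00585% of probe sets. All 9 B cell markers had the same sign, with a median of 0.48, and 9 of 10 monocyte markers, with a median of 0.57. With the B cell mean as a covariate the median of the members was 0.21, and RT1-Da stood at 0.18. The 2 days to set against each other had been picked with earlier results of these data known. A test over all 6 days gave 0 members past the threshold, against 0% of probe sets, and 0 at an unadjusted p under 0.05, against 7.02% (limma adjusted p from 0.858 to 0.944).

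**Figure D2:**
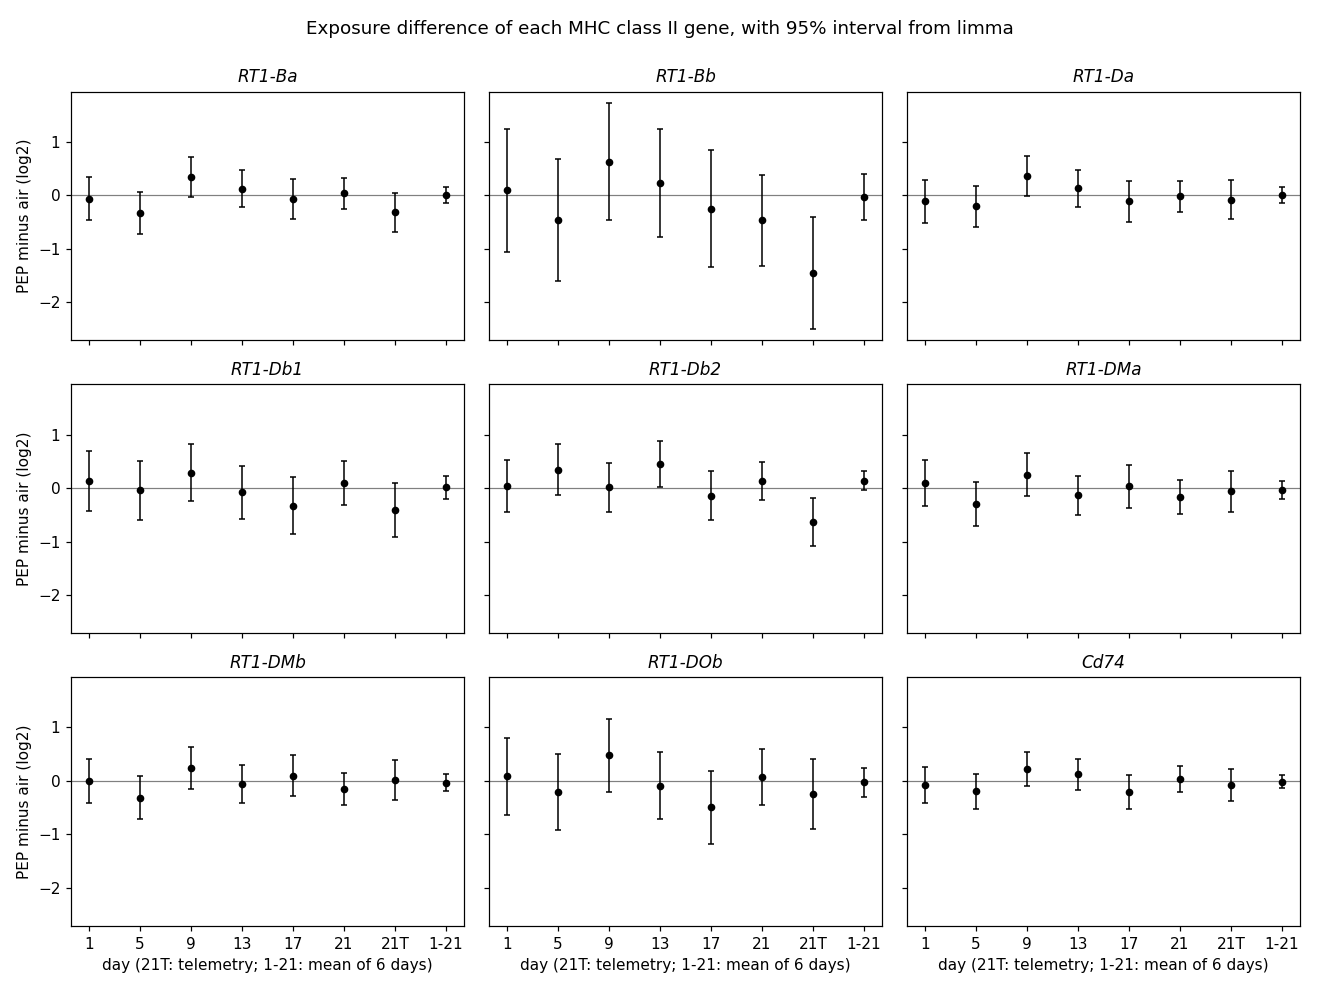
Difference between exposed and air rats (y axis, log2, PEP minus air) for each gene on each day (x axis; 21T marks telemetry rats, 1-21 the mean of the 6 days without them), with the 95% interval of limma. Day 5 values lie mostly below 0 and day 9 values at or above 0, all intervals reach 0 except those of RT1-Db2 on day 13 and of RT1-Bb and RT1-Db2 in telemetry rats, and the 6-day means lie between −0.04 and 0.14.

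On days 13, 17 and 21 the members were divided in sign or turned with the processing. On day 13, 5 were higher and 4 lower in exposed rats in the weighted fit, with a median of 0.12. By plain group means 8 were higher and 1 lower, with a median of 0.26, while the weighted median was 0.07 without air replicate 1 and 0.01 with the lower quartile as a covariate. Of these 0 passed, against 0.00585% of probe sets, and 1 had an unadjusted p under 0.05, against 7.7%. This was RT1-Db2, a beta chain gene of RT1-D, at 5.72, 6.02, 5.51, 5.90 and 5.72 in exposed rats and at 4.18, 5.26, 5.35, 5.04 and 5.86 in air rats (0.44 ± 0.21, limma adjusted p = 0.622). A single air rat, replicate 5 at 5.86, lay inside the exposed range, and the difference was 0.38 without replicate 1, the low array of that group.

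On day 17, 7 members were lower in exposed rats (median −0.14), 0 passed, against 0%, and 0 had an unadjusted p under 0.05, against 4.88%. The median was −0.29 without air replicate 2, the low array of that day, 0.07 without air replicate 4 and 0.01 with the B cell mean as a covariate. The widest difference was that of RT1-DOb, at 6.63, 6.66, 6.80, 7.34 and 6.43 in exposed rats and 7.67, 7.05, 7.43 and 6.75 in air rats (−0.49 ± 0.34). On day 21, with the most rats, 5 were higher and 4 lower (median 0.03, from −0.07 to 0.06 with single arrays left out), 0 passed, against 0%, and 0 had an unadjusted p under 0.05, against 4.96%. Cd74 was nearly the same in both arms on that day, from 11.68 to 12.12 with a median of 11.93 in exposed rats and from 11.74 to 12.17 with a median of 11.87 in air rats (0.03 ± 0.12, 6 rats each). RT1-DOa, the alpha chain partner of RT1-DOb and not a member, had its widest difference on day 17 as well (−0.66 ± 0.25, limma adjusted p = 0.931).

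Averaged over the 6 days without telemetry, the exposure difference of the members was small and its interval narrow. Of 9 members 0 passed, against 0% of probe sets, and 0 had an unadjusted p under 0.05, against 6.17%. Cd74 had a mean difference of −0.02 (95% interval −0.14 to 0.11), RT1-Da of 0.01 (−0.14 to 0.16) and RT1-DMb of −0.03 (−0.19 to 0.12). RT1-Bb had the widest interval, −0.47 to 0.40, and RT1-Db2 the highest mean, 0.14 (−0.04 to 0.32). RT1-Db2 was higher in exposed rats on 5 of 6 days in the weighted fit and on 4 by plain group means. Intervals of single days were wider, and they leave room for differences of either sign.

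In the telemetry rats of day 21, RT1-Bb and RT1-Db2 had lower values in exposed rats than in air rats, and neither passed. RT1-Bb, the beta chain of RT1-B, was at 6.45, 3.45, 4.42 and 4.01 in exposed rats and at 5.59, 6.72, 5.12 and 7.28 in air rats. The exposed values spread over the range of other groups, while all 4 air values were above 5. The difference was −1.45 ± 0.52 (unadjusted p = 0.00743, limma adjusted p = 0.806) and ran from −2.20 (without exposed replicate 1) to −1.07 (without exposed replicate 2) when single arrays were left out. RT1-Db2 was at 5.90, 6.0, 5.49 and 4.91 in exposed rats and at 6.10, 6.34, 6.19 and 6.34 in air rats, with no overlap between the arms (−0.64 ± 0.22, limma adjusted p = 0.798). Its difference was −0.46 without exposed replicate 4, the low array of that group. How many of all probe sets separate among 4 and 4 rats was not counted, so the lack of overlap is a description only. Of the 9 members 0 passed, against 0.00585% of probe sets, and these 2 had an unadjusted p under 0.05, against 5.33%. RT1-Ba was at 7.41, 7.39, 7.24 and 6.70 in exposed and 7.94, 7.16, 7.43 and 7.74 in air rats (−0.32 ± 0.18).

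The implant itself was compared within each arm, against the rats of day 21 that had none. In air, RT1-Bb was at 5.59, 6.72, 5.12 and 7.28 with the implant and from 3.91 to 6.51 with a median of 4.08 without it (1.67 ± 0.48, unadjusted p = 0.00103, limma adjusted p = 0.12). A single rat without the implant, replicate 3 at 6.51, lay among the implanted ones, and without that array RT1-Bb passed at a difference of 2.1. At the other end, the difference was 1.33 without air telemetry replicate 4. RT1-Db2 was higher in all 4 implanted air rats (6.10 to 6.34) than in the 6 others (5.19 to 6.06), at 0.55 ± 0.20 (limma adjusted p = 0.288). The share of all probe sets with such a separation was not counted. RT1-Ba differed by 0.40 ± 0.17 (limma adjusted p = 0.391). With all arrays 0 members passed, against 0.468% of probe sets, and these 3 had an unadjusted p under 0.05, against 9.52%.

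In exposed rats RT1-Db1 and RT1-DOb had the smallest p with the implant, and neither passed. RT1-Db1, the main beta chain of RT1-D, was at 7.14, 8.09, 7.37 and 7.23 with it and from 7.89 to 8.45 with a median of 8.17 without it. Of the 4 implanted rats 3 lay below every rat without the implant, and replicate 2 lay inside their range (−0.76 ± 0.23, unadjusted p = 0.00148, limma adjusted p = 0.0765). RT1-DOb was at 6.51, 6.16, 7.60 and 6.07 with the implant and from 6.95 to 7.84 with a median of 7.45 without it (−0.81 ± 0.29, limma adjusted p = 0.180). Its exception was replicate 3. Leaving out replicate 2, RT1-Db1 passed at −0.96, and leaving out replicate 3, RT1-DOb passed at −1.16. In each case the array left out was the exception named. At the other end, RT1-Db1 was at −0.63 without telemetry replicate 1, and RT1-DOb at −0.67 without telemetry replicate 4. Both had lower values with the implant in air rats too (−0.26 ± 0.24 and −0.49 ± 0.30), and the test of the difference between the arms gave limma adjusted p = 0.981 and 0.996. With all arrays 0 members passed, against 1.22% of probe sets, and these 2 had an unadjusted p under 0.05, against 11.9%.

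Other blood cell genes also differed in the implanted exposed rats. Of 10 monocyte markers 5 passed, all higher, where 1.22% of all probe sets passed. Of 8 NK cell markers 6 passed, all of those higher, while 0 of 9 B cell markers passed. Of 11 T cell markers 2 passed, both lower. In air rats 2 of 11 T cell markers passed with the implant, both lower, where 0.468% of all probe sets passed. There 0 of the monocyte, NK cell and B cell markers passed, although 5 of 8 NK cell markers had an unadjusted p under 0.05 in limma, against 9.52% of probe sets. The monocyte mean ran from 6.76 to 7.56 with the implant and from 6.17 to 6.80 without it. The B cell mean ran from 7.26 to 7.73 with the implant and from 7.29 to 7.84 without it. Cd74 was at 11.88, 12.24, 12.12 and 11.61 with the implant, around a median of 11.93 without it. The part of these cell types in the values of the members with the implant was not tested. The difference of the exposure effect with and without the implant gave 0 members past the threshold, against 0% of probe sets, and 1 at an unadjusted p under 0.05, against 5.26%, which was RT1-Db2 (−0.77 ± 0.29, limma adjusted p = 0.790). These comparisons share the arrays of day 21 and are not independent of each other.

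**Figure D3:**
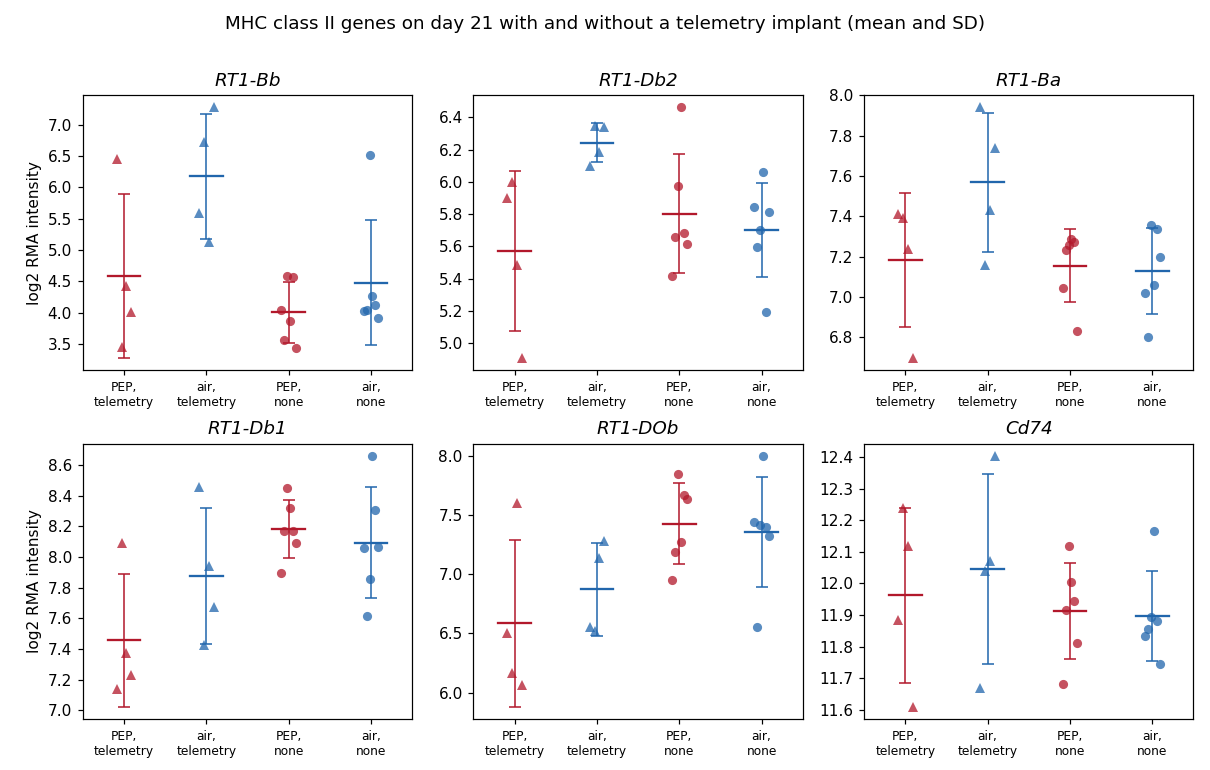
Log2 RMA intensity (y axis) of 6 of the genes on day 21 in exposed and air rats with a telemetry implant (triangles, 4 arrays each) and without one (circles, 6 arrays each); points are arrays, and bars give mean and SD. RT1-Bb and RT1-Db2 are highest in the air rats with the implant (means 6.18 and 6.24), RT1-Db1 and RT1-DOb are lowest in the exposed rats with it (7.46 and 6.58), and Cd74 has similar values in the 4 groups.

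Most members had higher values in the rats of day 21 than in the other rats that gave blood on day 1, in both arms. None passed, and the direction depended on background, as given below. In exposed rats 8 of 9 had higher values on day 21 than on day 1, with a median of 0.23 beside −0.03 over all probe sets. In air rats all 9 were higher, with a median of 0.24, beside −0.00 over all probe sets. RT1-Da was at 10.19 ± 0.17 on day 21 and 9.79 ± 0.17 on day 1 in exposed rats (SD, n = 6 and 5), and at 10.22 ± 0.19 on day 21 and 9.76 ± 0.39 on day 1 in air rats. Its differences were 0.43 ± 0.18 in exposed rats (limma adjusted p = 0.12) and 0.33 ± 0.17 in air rats (limma adjusted p = 0.322). Cd74 differed by 0.34 ± 0.15 in exposed rats and 0.24 ± 0.14 in air rats, and RT1-DMb by 0.23 ± 0.18 in exposed rats and 0.38 ± 0.18 in air rats.

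Of the members 0 passed between day 21 and day 1 in exposed rats, against 8.13% of probe sets, and 3 (RT1-Ba, RT1-Da and Cd74) had an unadjusted p under 0.05, against 24.1%. In air rats 0 passed, against 1.97%, and 1 (RT1-DMb) had an unadjusted p under 0.05, against 16.6%. Background moved with the days. The lower quartile of all probe sets averaged 1.45 ± 0.03 on day 21 and 1.60 ± 0.08 on day 1 in exposed rats, and 1.44 ± 0.02 on day 21 and 1.57 ± 0.13 on day 1 in air rats. With that quartile as a covariate the median difference of the members was −0.22 in exposed rats, with the sign turned, and 0.01 in air rats. The median in exposed rats was 0.13 without replicate 3 of day 21, and that in air rats 0.39 without array weights.

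The whole course over 6 days was also tested in each arm. In exposed rats 0 members passed, against 4.71% of probe sets, and 0 had an unadjusted p under 0.05, against 21.1%. In air rats 0 passed, against 1.81%, and Cd74, RT1-Ba, RT1-DMb and RT1-Da had an unadjusted p under 0.05, against 16.6% (limma adjusted p = 0.187, 0.195, 0.248 and 0.284). In air rats Cd74 had means of 11.55, 11.79, 11.39, 11.40, 11.87 and 11.90 on days 1, 5, 9, 13, 17 and 21. The lowest means of this course, days 9 and 13, each include a low array named above, replicate 1.

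Sorted by size, the group means of most members formed a continuous order. Steps between 14 sorted means tend to be small whether or not groups differ, so this order does not show that the groups are alike. For 6 of the 9, the widest step between neighbouring group means was smaller than the median SD within groups: for Cd74 it was 0.10 against 0.27, and for RT1-Da 0.16 against 0.32. RT1-Bb was the clearest exception, with a step of 1.56 against a median SD of 0.61, between the air telemetry rats at 6.18 ± 0.99 (SD, n = 4) and the group after them, exposed rats of day 9 at 4.61 ± 1.36 (n = 5). RT1-Ba had a step of 0.36 against 0.33, below the same air telemetry group, and RT1-Db2 one of 0.42 against 0.33, above the air rats of day 13. The air rats of day 9 had the lowest mean of all groups for RT1-Ba, RT1-Da, RT1-DMa, RT1-DMb and Cd74.

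The spread of RT1-Bb among rats of 1 group was wide. Its SD of deviations from group means was 0.83, at percentile 98.6 among 500 tested probe sets of like mean, and that of RT1-DOb was 0.57, at percentile 96. Cd74 was at the other end with 0.29 and percentile 55.8. RT1-Bb was above 5 on 10 arrays, from 5.12 to 7.28, and the highest of the others was 4.69. This limit was chosen after its values were seen. The 10 arrays came from 6 groups. They were 1 of 4 exposed and 4 of 4 air telemetry rats, exposed day 9 replicates 2 and 4, and 1 air rat each of days 5, 9 and 21.

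Some neighbouring genes went with RT1-Bb on those arrays. In the groups that also held arrays below 5, RT1-Ba on the high arrays was the highest or next highest of its group. RT1-Db1 was the lowest or next lowest there. RT1-Db2 ran from 5.70 to 6.34 on the 10 arrays, with a median of 5.70 over all arrays. This was looked at after the values were seen and is a description only. On air day 9 replicate 3 RT1-Bb was 6.37, while RT1-Db1 (6.44) had its lowest value of all 69 arrays and RT1-DOb was 5.71. The air telemetry rats, all 4 above 5, did not share the low RT1-Db1. On their replicate 1 RT1-Bb was 5.59, and RT1-Db1 was 8.46, near the top of its range. Whether the probes of 1 set also bind a paralog, or bind its alleles unequally, was not tested.

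The members fell into sets that varied together from rat to rat. Correlations are given over 69 arrays after subtraction of group means, as descriptions, since arrays share background and cell content. Cd74, RT1-Da and RT1-DMb formed the closest set, with Pearson r between 0.88 and 0.89. RT1-Db1 and RT1-DOb formed another (r = 0.73), although RT1-Db1 is the beta chain partner of RT1-Da, with which its r was 0.42. RT1-DMa had r = 0.67 with RT1-DMb and 0.64 with RT1-Db1. Over the 28 pairs without RT1-Bb the median r was 0.52. RT1-Bb had its highest r, 0.54, with its alpha chain RT1-Ba, and negative values with RT1-Db1 (−0.29) and RT1-DOb (−0.08), but its values are split as described, and an r over them carries little.

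**Figure D4:**
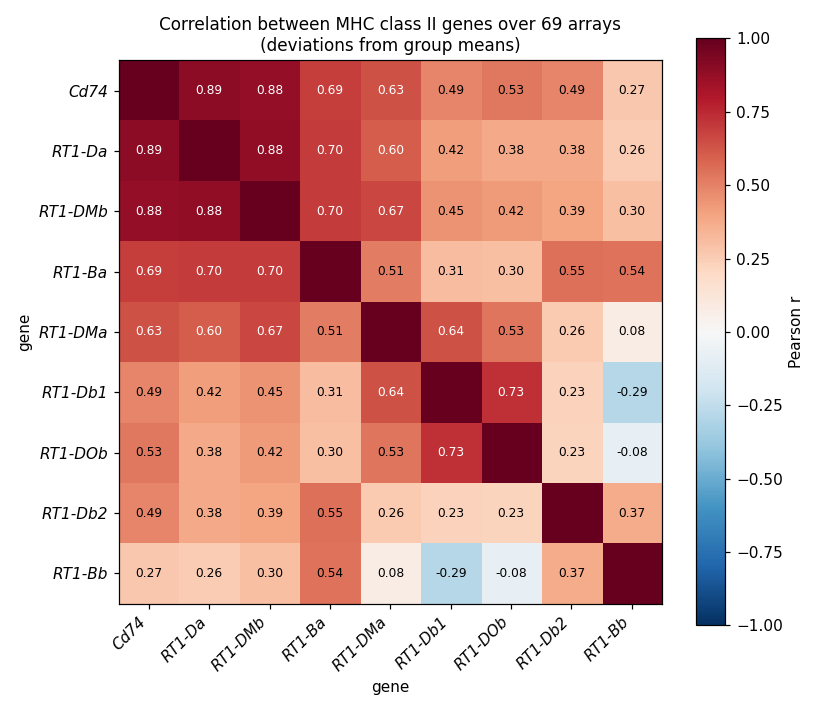
Pearson r between the 9 genes (both axes) over 69 arrays, computed on deviations from group means, with red for positive and blue for negative values. Cd74, RT1-Da and RT1-DMb form a block of r near 0.88, RT1-Db1 and RT1-DOb a pair at 0.73, and RT1-Bb is weakly related to most others.

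Cd74 was the member closest to the B cell genes, with r = 0.94 against the mean of the 9 B cell markers (Spearman rho 0.93), followed by RT1-Da (0.86) and RT1-DMb (0.81). The genes most like single members were looked at after the results were seen. Those most like Cd74 were Fcrla (r = 0.92), Fcmr (0.91), Map4k1 (0.90) and Cd22 (0.89), of which Fcrla and Cd22 are in the B cell list and Fcmr encodes the IgM receptor. RT1-DMa was closer to monocyte genes, with r = 0.78 against their mean and 0.55 against the B cell mean. The genes most like it were the lysosomal protein Cd68 (0.79), the aspartic protease Napsa (0.79) and Pld4 (0.78). Agpat4 (0.76), Gm2a (0.75) and Cyba (0.75) followed, then Csf1r, the receptor for macrophage growth factor (0.74), and Cd81 (0.74). Cd81 was among the first 10 for RT1-Da too (0.84). Without the 2 outermost arrays r was 0.93 for Cd74 with the B cell mean and 0.69 for RT1-DMa with the monocyte mean. RT1-DMb was near both lists, at 0.77 with monocyte markers. Dendritic cell markers, at low intensity, had r of at most 0.30 with any member. Of the other cell types, the T cell and NK cell means had positive r with all members as well. The T cell mean had r from 0.20 (RT1-Bb) to 0.67 (RT1-Ba), with 0.62 for RT1-DMb and 0.60 for Cd74. For RT1-Ba this was above its r with the B cell mean, 0.63. The NK cell mean had r of at most 0.53 (RT1-Ba). Without the 2 outermost arrays the T cell mean had r of 0.45 with Cd74, 0.47 with RT1-DMb and 0.58 with RT1-Ba. The neutrophil mean had r from 0.02 (RT1-Db1) to 0.37 (RT1-DMa), and the platelet mean from −0.07 (RT1-Db2) to 0.46 (RT1-DMa). The erythroid mean had negative r with all members, from −0.43 (RT1-DMb) to −0.05 (RT1-Db2). Positive r was thus not particular to cells that carry class II, and it was not common to all cell types. The lower quartile of the array, a measure of background, had r between −0.43 and −0.73 with the 8 members other than RT1-Bb.

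**Figure D5:**
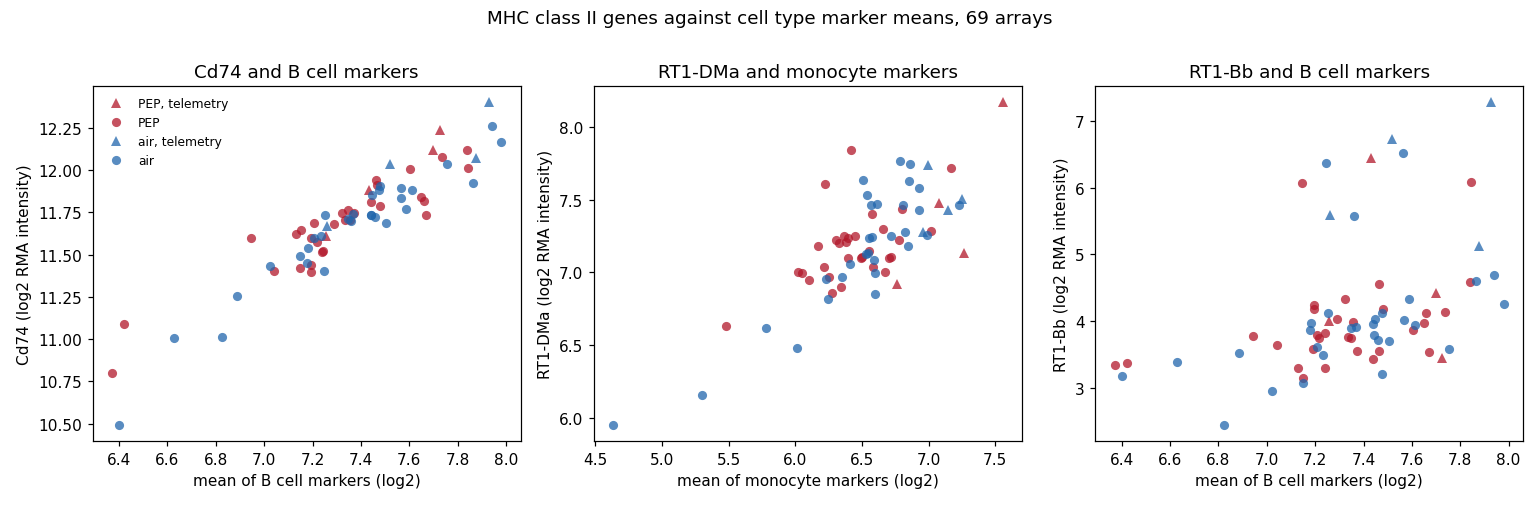
Log2 intensity (y axes) of Cd74, RT1-DMa and RT1-Bb against the mean of the B cell or monocyte markers on the same array (x axes, log2), for exposed (red) and air (blue) rats, with triangles for telemetry rats. Cd74 runs in a narrow band from 10.49 to 12.40, RT1-DMa rises with the monocyte mean more loosely, and the 10 arrays of RT1-Bb above 5 lie over B cell means that other arrays share.

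For the mean of the 9 members the most similar genes were Fcrla (r = 0.87), Map4k1 (0.86), Gm2a (0.85), Ly86 (0.84), Ctsa (0.84), Rnase6 (0.83), Tmbim1 (0.83), Arf4 (0.83), Glud1 (0.82) and Lax1 (0.82), out of 13561 genes compared. For 4 members a gene of the same chromosomal neighbourhood, within 100 genes on either side in RefSeq order, was among the first 10. These were Psmb8 and Ltb for RT1-Db1 (r = 0.63 and 0.57), Ltb and Ralgdsl2 for RT1-DOb (0.62 and 0.60), Wdr46 for RT1-Bb (0.51) and Phf1 for RT1-Db2 (0.59). Such neighbours make up 0.833% to 0.848% of the genes compared for these members. For RT1-Ba, RT1-Da, RT1-DMa, RT1-DMb and Cd74 none of the first 10 was a neighbour. This look at neighbours was chosen after the similar genes were seen.

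Other genes of the pathway were counted from lists. In the exposure comparisons 0 of them passed on any day or with telemetry. Among 5 tested genes of the class II transcription complex, Nfyb, a subunit of the Y box factor NF-Y, had the smallest p on day 13 (0.74 ± 0.24, limma adjusted p = 0.395). Of the 6 tested genes on the interferon gamma route to Ciita, 3 passed between day 21 and day 1 in exposed rats, where 8.13% of all probe sets passed. Jak1 (0.40 ± 0.12, limma adjusted p = 0.0247) and Jak2 (0.44 ± 0.14, 0.0357), the kinases of the interferon gamma receptor, rose, and Usf1, a factor that binds a Ciita promoter, fell (−0.95 ± 0.24, 0.00877).

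Of 5 tested genes of endosomal processing, 2 fell between day 1 and day 21 in exposed rats and 1 of these in air rats, where 8.13% and 1.97% of all probe sets passed, and 1 rose with the implant in exposed rats, where 1.22% passed. Ctsb, a cysteine cathepsin, fell in exposed rats (−0.36 ± 0.11, limma adjusted p = 0.0366) and in air rats (−0.40 ± 0.11, with the same adjusted p to 3 digits), and Ctsd fell in exposed rats (−0.55 ± 0.16, 0.0238). Lgmn, an asparaginyl endopeptidase, rose with the implant in exposed rats (0.55 ± 0.13, 0.0205). Of 7 tested genes of costimulation and surface turnover, 2 passed over the days in exposed rats and 1 in air rats, beside the same shares. Marchf8, a ubiquitin ligase that acts on class II and costimulatory molecules, fell in exposed rats (−0.80 ± 0.18, 0.00398) and in air rats (−0.65 ± 0.18, 0.0366). Cd274, the ligand of PD-1, rose in exposed rats (0.99 ± 0.25, 0.00881). These changes over days stand beside the background shift given above, and its part in them was not tested.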

How the data were processed

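RNA of whole blood kept in RNAlater was hybridised to Rat Gene ST arrays, 1 per rat. Intensities were deposited on the log2 scale after the authors had run RMA (oligo and limma in R 3.4, per the submitters' processing notes), which subtracts background, equalises the distributions and summarises probes. Which arrays were normalised together is not given in the sources used here. Probe sets were named through the platform annotation (14824 with 1 symbol, 829 with several, 21032 with none). The 2509 of 36685 probe sets with a variance under 0.05 were left out. Group means were fitted over all 69 arrays with limma 3.58.1 in R 4.3.3, with array weights and moderated variances, and 17 comparisons were made with Benjamini-Hochberg adjustment over 34176 probe sets. The procedure was tested on simulated data. No 2 arrays were identical, and the median correlation within groups was 0.961. The number of arrays limits the precision. Named genes were the members, up to 4 genes of each pathway list by smallest p, and the 10 genes most like the mean of the members. Genes most like single members were added later. The members and lists were chosen with earlier results of these data known. Alternatives were the array weights, the variance filter, cyclic loess, fits of only the groups compared, the replicate number as a block, covariates, and leaving out each array.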

Additional observations from a re-analysis of the deposited data

Results flagged for a closer look

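Of 126 combinations of member and group examined, 13 held an array set far apart from the rest of its group by Dixon's criterion at the 95% level, which chance alone meets in about 1 group in 20. These are given as values, and their causes were not tested.

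The arrays that were low for most members gave 6 of them. On air day 13 replicate 1 RT1-Ba was 5.85 (other rats 6.87 to 7.05), RT1-DOb was 5.29 (6.91 to 7.51) and Cd74 was 10.49 (11.49 to 11.73). On exposed day 5 replicate 1 RT1-DMb was 6.66 (7.49 to 7.71) and Cd74 was 10.80 (11.52 to 11.79). On air day 1 replicate 2 RT1-Da was 9.06 (9.88 to 9.99).

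The others were of single genes. RT1-Bb was 6.51 on air day 21 replicate 3 (3.91 to 4.26), the array that decided its call with the implant. Air day 9 replicate 3 had a high RT1-Db2 at 6.09 (5.51 to 5.67) and a low RT1-DOb at 5.71 (6.88 to 7.29). RT1-DMa was high on exposed day 17 replicate 4 at 7.72 (7.14 to 7.30), and RT1-DMb was low on exposed day 17 replicate 3 at 7.03 (7.83 to 8.01). RT1-Da was low on air day 5 replicate 3 at 9.84 (10.08 to 10.18), and Cd74 was high on air day 21 replicate 4 at 12.17 (11.74 to 11.89).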

How the results depend on the processing

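No member passed in any of the 17 comparisons under any alternative, except when single arrays of day 21 were left out. Leaving out each replicate in turn gave 0 to 1 members passing with the implant in air rats and 0 to 1 in exposed rats. In air rats RT1-Bb passed at 2.1 without air replicate 3 and was at 1.33 without telemetry replicate 4. In exposed rats RT1-Db1 passed at −0.96 without telemetry replicate 2 and was at −0.63 without telemetry replicate 1. There RT1-DOb passed at −1.16 without telemetry replicate 3 and was at −0.67 without telemetry replicate 4. The median of the day 9 minus day 5 difference was 0.21 with the B cell mean as a covariate, against 0.56. With the lower quartile as a covariate the median difference between day 21 and day 1 in exposed rats was −0.22, against 0.23, and that of Cd74 turned to −0.022, against 0.34. With the replicate number as a block the median was −0.23 on day 5, 0.28 on day 9 and 0.59 for their difference, and 0 members passed. The numbers do not pair the rats: correlations of same-numbered arrays ran from −0.08 to 0.25. Leaving out arrays of weight under 0.5 was chosen after seeing the data. A mean over a gene's probe sets could not be run, since each member had 1. With 4 to 6 rats in a group, intervals of a single day leave room for differences of either sign.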
